A study of Mus musculus with 9 samples.

Results

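The 10 genes described here encode the early growth response factors Egr1, Egr2 and Egr3, the Kruppel-like factors Klf2, Klf4, Klf6 and Klf10, the short proteins Ier2 and Ier3, and the orphan nuclear receptor Nr4a1. They were picked by symbol as immediate early genes outside the AP-1 family, and each symbol matched 1 row of the 56691 genes in the table. The choice was made with earlier results of these data known, so counts set beside all tested genes describe this list only. The RNA was that of a wild-type mouse embryonic fibroblast line, NIH/3T3, grown in serum, in 3 groups of 3 libraries. Co-treated cells were given UVA at 10 J/cm2 and alpha-arbutin, a glucoside of hydroquinone. UVA cells were given the same dose without alpha-arbutin. Control cells carry no treatment label, and no source used here says whether they were handled like the irradiated ones. The study asks whether alpha-arbutin protects these cells from photodamage. Nothing in the sources used here gives the alpha-arbutin dose, the time from irradiation to harvest, or whether the libraries came from separate cultures, so p-values measure the spread between these libraries, which may be technical.

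Immediate early genes are transcribed from preformed factors, without new protein synthesis, when a cell meets serum, growth factors or stress. Kinases of the ERK and p38 branches activate the ternary complex factors, which sit with serum response factor (SRF) on CArG boxes, and CREB family factors, which bind cyclic AMP response elements (CRE). The messages are usually short-lived, and their level after a stimulus passes quickly. EGR and Kruppel-like factors are zinc finger proteins that bind GC-rich DNA and control growth, arrest and matrix genes in fibroblasts.

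Promoter letters came from RefSeq on GRCm38.p6, while the count table is on mm39. The 250 bases before the annotated start were used for the 6 matched genes, Egr2 (with 5 annotated starts), Klf2, Klf4, Klf6, Ier3 and Nr4a1. Egr1, Egr3, Klf10 and Ier2 are named only. The sequences are those of Klf2 and Ier3, which rose in UVA cells, Nr4a1, which did not, and the third start of Egr2, a gene with no called change. Capitals mark a CArG box (CC, then 6 bases of A or T, then GG) or the CRE core TGACG on either strand.
Klf2 (chr8:72318812-72319061, plus strand): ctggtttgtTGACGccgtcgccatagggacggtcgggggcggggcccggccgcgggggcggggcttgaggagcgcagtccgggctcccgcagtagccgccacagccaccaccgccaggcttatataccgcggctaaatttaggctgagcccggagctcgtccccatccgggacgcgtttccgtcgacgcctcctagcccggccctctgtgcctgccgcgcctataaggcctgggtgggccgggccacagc
Ier3 (chr17:35821463-35821712, plus strand): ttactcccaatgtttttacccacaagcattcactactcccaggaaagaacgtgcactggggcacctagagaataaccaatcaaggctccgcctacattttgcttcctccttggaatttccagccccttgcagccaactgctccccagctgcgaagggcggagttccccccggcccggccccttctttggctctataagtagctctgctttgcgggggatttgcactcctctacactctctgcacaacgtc
Nr4a1 (chr15:101266596-101266845, plus strand): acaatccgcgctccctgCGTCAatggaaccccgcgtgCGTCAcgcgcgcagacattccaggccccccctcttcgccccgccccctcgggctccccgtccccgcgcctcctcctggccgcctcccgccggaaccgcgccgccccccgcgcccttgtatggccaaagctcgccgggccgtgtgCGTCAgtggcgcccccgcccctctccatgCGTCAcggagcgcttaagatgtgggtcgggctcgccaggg
Egr2 (chr10:67537619-67537868, plus strand): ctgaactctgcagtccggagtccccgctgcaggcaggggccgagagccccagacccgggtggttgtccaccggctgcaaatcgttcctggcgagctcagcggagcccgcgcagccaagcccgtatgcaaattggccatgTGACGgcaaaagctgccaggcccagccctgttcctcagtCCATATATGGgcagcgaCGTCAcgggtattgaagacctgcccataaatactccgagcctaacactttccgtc

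The CArG box stood in 1 of the 6 genes, Egr2, and in 1.47% of 32851 windows of the same length. TGACG stood in Egr2, Klf2, Klf4 and Nr4a1, or 4 of 6 genes, against 17.8% of all windows, and Nr4a1 held 4 copies. The EGR consensus GCGGGGGCG was found in Klf2, Klf4 and Nr4a1, against 2.57% of all windows, and in each it overlaps a GC box. The GC box GGGCGG was in 6 of 6 genes, in Egr2 at its first and second starts only (32.7% of windows), and CACCC in Egr2 and Klf2 (52.0% of windows). TATAAA (12.4% of windows), the full CRE TGACGTCA (1.55%) and the ETS letters CCGGAAG (6.91%) were in 0 of 6. Both strands were read. A gene was counted if any of its windows held the letters, and Egr2 had 5 windows while each other matched gene had 1. In Egr2 a CArG box stood at starts 2 to 5, TGACG at starts 3 to 5 and CACCC at starts 3 and 4. The box at start 2 (CCTTTTTTGG) differs from that at starts 3 to 5 (CCATATATGG), whose windows overlap and hold the same site. Gene counts that include Egr2 are therefore not directly comparable with shares of single windows. The members' windows held 54.0 to 74.4% G and C, against a median of 52.4% over all windows, and GC-rich letters are more frequent in such windows. Both TGACG and the EGR consensus stood in Klf2 and Klf4, which rose, and in Nr4a1, which was not called in UVA against control cells. Egr2, also not called, held TGACG without the EGR consensus. Ier3 and Klf6, which rose, held neither. Whether these letters bear on the changes was not tested, and Egr1, Egr3, Klf10 and Ier2 had no window.

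**Figure D1:**
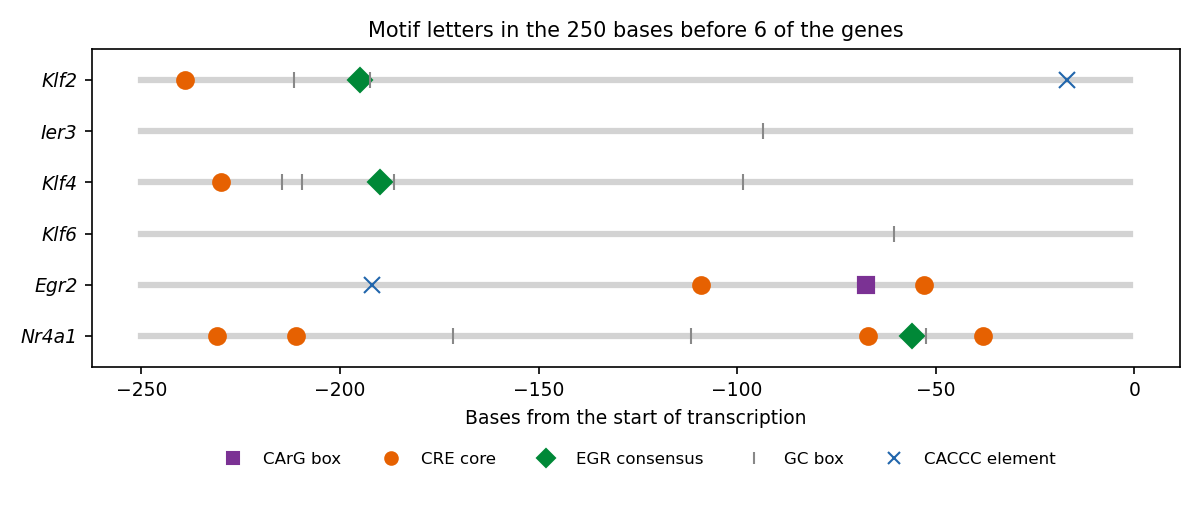
Positions of motif letters in the 250 bases before the annotated start of 6 genes (the third start for Egr2), in bases from the start, with a symbol for each motif. Klf2, Klf4 and Nr4a1 each carry the EGR consensus, and the CArG box appears in Egr2 alone among these 6 windows.

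The genes are compact. Their median span was 5368 bases, against 18762 bases for all tested genes. Their longest coding transcripts had 2.5 exons at the median, against 9 over the 11475 tested genes with a coding transcript and a 3′ untranslated end. In the 3′ untranslated ends of GENCODE M21 transcripts, AUUUA, the core of AU-rich elements that shorten the life of an mRNA, occurred 2.38 times per kb at the members' median and 1.35 times per kb over 11475 tested genes. Ier3 had 5 copies in 613 bases (8.16 per kb), Nr4a1 3 in 543 bases (5.52 per kb) and Ier2 0 in 755 bases. A longer nonamer form of the element was in 0 of 10 members and in 8.3% of those tested genes.

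Total counts ran from 16298348 to 20862894 per library, and the 10 most abundant genes took 6.37 to 6.86% of them. All 10 members passed the filter on low counts, among 14151 tested genes, and took 0.0499 to 0.0518% of counts in co-treated, 0.0519 to 0.0572% in UVA and 0.0413 to 0.0425% in control libraries. The 10 fibroblast markers summed to 8660 to 9250 CPM (counts scaled to library size) in co-treated, 8960 to 9200 in UVA and 12400 to 12800 in control libraries. Epithelial, muscle, immune and endothelial markers each summed to 0.877 to 6.78 CPM in the 9 libraries, with Epcam, Krt5, Myod1 and Cd3e at 0. Adipocyte markers summed to 15.6 to 18.6 CPM in co-treated, 13.9 to 17.1 in UVA and 31.5 to 33.8 in control libraries. Their part in the results was not tested, and a change in the share of a cell state cannot be told apart from a change of RNA per cell in such bulk libraries.

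Levels between genes are compared as FPKM, which divides the count by exonic size and library total. Ier3 stood highest in each group, at 103 ± 5.23 in co-treated, 111 ± 17.0 in UVA and 71.3 ± 8.45 FPKM in control cells (SD, n = 3), and above 97.1% of tested genes by its mean over the 9 libraries. Klf6 and Klf4 followed, above 91.1% and 88.8% of tested genes. Ier2, Egr1, Klf10, Nr4a1, Klf2 and Egr3 lay between 0.88 and 12.02 FPKM, and Egr2 was lowest in each group. The order was the same in each group except for Klf10 and Nr4a1. Nr4a1 stood above Klf10 in control cells and below it in both irradiated groups, without overlap. Most neighbours in the order of a group were separated in all of their libraries. Ier2 and Egr1 overlapped in co-treated and control cells, Klf2 and Egr3 overlapped in co-treated and control cells, and Nr4a1 and Klf2 overlapped in UVA cells.

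**Figure D2:**
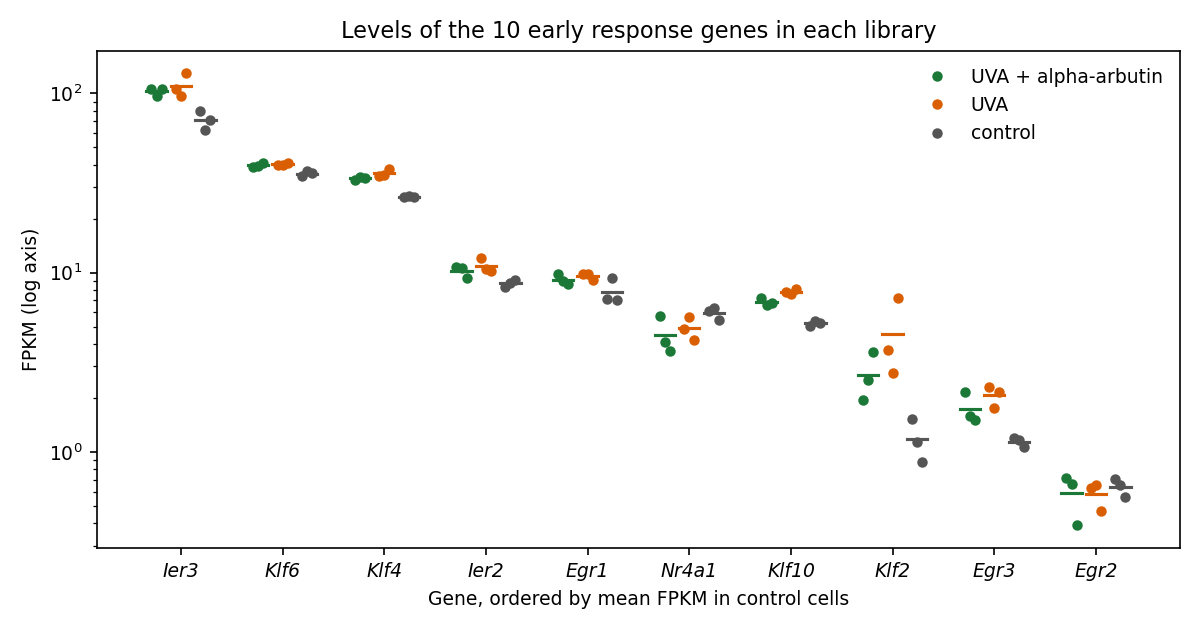
FPKM of each gene (log axis) in each library, by group, with points for libraries and a short line for the mean of 3. Ier3 is highest and Egr2 lowest in each group; for Klf2, Egr3, Klf4, Klf6, Klf10, Ier2 and Ier3 the 3 UVA points lie above the 3 control points.

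The comparison of UVA with control cells asks how irradiated cells without alpha-arbutin differ. Of the 10 genes, 8 rose: Klf2, Egr3, Ier3, Klf10, Klf4, Ier2, Egr1 and Klf6, by 3.99-fold for Klf2 and 1.14-fold to 1.84-fold for the others. Egr2 and Nr4a1 did not pass. Among all tested genes 14.7% were called higher and 14.6% lower at a Benjamini-Hochberg adjusted p below 0.05 in edgeR's quasi-likelihood test. The members' median log2 fold change was 0.39, against 0.00 over all tested genes. UVA and control libraries did not overlap, with UVA higher, for 7 members, against 21.1% of tested genes; for none of the 10 did they separate with UVA lower, against 20.9% of tested genes.

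Among the Kruppel-like factors, Klf2 changed most. Klf2, best known as the flow-responsive factor of endothelium and a brake on cell growth (ENSMUSG00000055148, chromosome 8, 73072877 to 73075500 on mm39), had 3.71, 2.76 and 7.18 FPKM in the UVA libraries, against 1.52, 1.13 and 0.88 FPKM in the control libraries. All 3 UVA values were above all control values, and UVA replicate 3 stood well above the other UVA libraries. These rest on 125, 83 and 266 counts in UVA and 48, 37 and 34 counts in control libraries. The log2 fold change was 2.00 ± 0.28 (SE; 95% interval 1.43 to 2.57; adjusted p = 1.98e-06). Without UVA replicate 3 it was 1.495 (adjusted p = 1.75e-05).

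Klf10, first described as a TGF-beta inducible gene (ENSMUSG00000037465, chromosome 15, 38291707 to 38300950), had 7.82, 7.56 and 8.09 FPKM in UVA and 5.02, 5.39 and 5.22 FPKM in control libraries. Both groups were tight and did not overlap. Its log2 fold change was 0.60 ± 0.07 (95% interval 0.45 to 0.76; adjusted p = 2.86e-07). Klf4, a reprogramming factor that also drives growth arrest (ENSMUSG00000003032, chromosome 4, 55527143 to 55532466), had 34.77, 35.18 and 37.73 FPKM in UVA and 26.55, 26.86 and 26.3 FPKM in control libraries. The control libraries differed by less than 1 FPKM, and the gap to the lowest UVA library was larger than the whole spread of either group. The log2 fold change of Klf4 was 0.45 ± 0.05 (adjusted p = 2e-08).

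Klf6, a broadly expressed member of the family (ENSMUSG00000000078, chromosome 13, 5911481 to 5920393), had 40, 40.07 and 41.17 FPKM in UVA and 34.42, 37.05 and 35.82 FPKM in control libraries. The groups separated, but the difference was the smallest of the called ones, at a log2 fold change of 0.19 ± 0.04 (adjusted p = 0.000957).

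Of the EGR genes, Egr3 and Egr1 were called higher and Egr2 was not called. Egr3, known from muscle spindles and T cells (ENSMUSG00000033730, chromosome 14, 70314652 to 70320063), had 2.29, 1.75 and 2.16 FPKM in UVA and 1.19, 1.17 and 1.07 FPKM in control libraries. All UVA values were above the control range, and the log2 fold change was 0.88 ± 0.15 (95% interval 0.57 to 1.19; adjusted p = 5.04e-05). Egr1, the prototype of the family (ENSMUSG00000038418, chromosome 18, 34992876 to 34998037), had 9.83, 9.85 and 9.14 FPKM in UVA and 7.1, 9.33 and 7.01 FPKM in control libraries. Control replicate 2 lay above UVA replicate 3, so the groups overlapped. Egr1 passed at 0.32 ± 0.08 on the log2 scale (adjusted p = 0.00458). It missed the threshold when control replicate 3 was left out (adjusted p = 0.0621) and with limma on log2(FPKM + 1) (adjusted p = 0.0561) or log2(FPKM + 0.1) (adjusted p = 0.0527).

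Egr2, known for hindbrain segmentation and myelination (ENSMUSG00000037868, chromosome 10, 67371305 to 67378018), had 0.63, 0.65 and 0.47 FPKM in UVA and 0.71, 0.65 and 0.56 FPKM in control libraries. The groups overlapped at 32 to 41 counts per library. Its log2 fold change was -0.12 ± 0.27 with a 95% interval of -0.67 to 0.44 (adjusted p = 0.792).

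Of the short early response proteins, Ier3 modulates apoptosis and ERK signalling and Ier2 is a small nuclear protein linked to cell movement. Ier3 (ENSMUSG00000003541, chromosome 17, 36132576 to 36133815) had 105.99, 96.51 and 129.52 FPKM in UVA and 79.68, 62.78 and 71.41 FPKM in control libraries. The lowest UVA library was above the highest control library, and UVA replicate 3 was again the highest. Its log2 fold change was 0.65 ± 0.08 (95% interval 0.50 to 0.81; adjusted p = 1.28e-07). Ier2 (ENSMUSG00000053560, chromosome 8, 85387960 to 85389483) had 12.02, 10.55 and 10.24 FPKM in UVA and 8.28, 8.78 and 9.12 FPKM in control libraries. The groups separated by a little over 1 FPKM, and Ier2 passed at 0.34 ± 0.10 on the log2 scale (adjusted p = 0.0109). It did not pass without control replicate 1 (adjusted p = 0.0535) or UVA replicate 1 (adjusted p = 0.0798).

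Nr4a1, an orphan nuclear receptor that acts in apoptosis and metabolism (ENSMUSG00000023034, chromosome 15, 101152150 to 101172676), had 4.88, 5.63 and 4.21 FPKM in UVA and 6.15, 6.35 and 5.44 FPKM in control libraries. UVA replicate 2 lay inside the control range. The log2 fold change was -0.27 ± 0.12 (95% interval -0.52 to -0.02; adjusted p = 0.095). Nr4a1 passed as lower under 5 of 19 other settings, with adjusted p from 0.0344 to 0.0401 there, the fit of the 2 groups alone and the fit with the replicate number as a block among them. With 1 library left out the difference ran from -0.38 without UVA replicate 2 (adjusted p = 0.0362) to -0.17 without UVA replicate 3 (adjusted p = 0.374). A gene without a symbol (ENSMUSG00000121015, 101158560 to 101161299) lies inside Nr4a1 on the same strand, with 12 to 33 counts per library, and reads there may not all be counted for Nr4a1. No gene in the table overlaps the other 9.

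**Figure D3:**
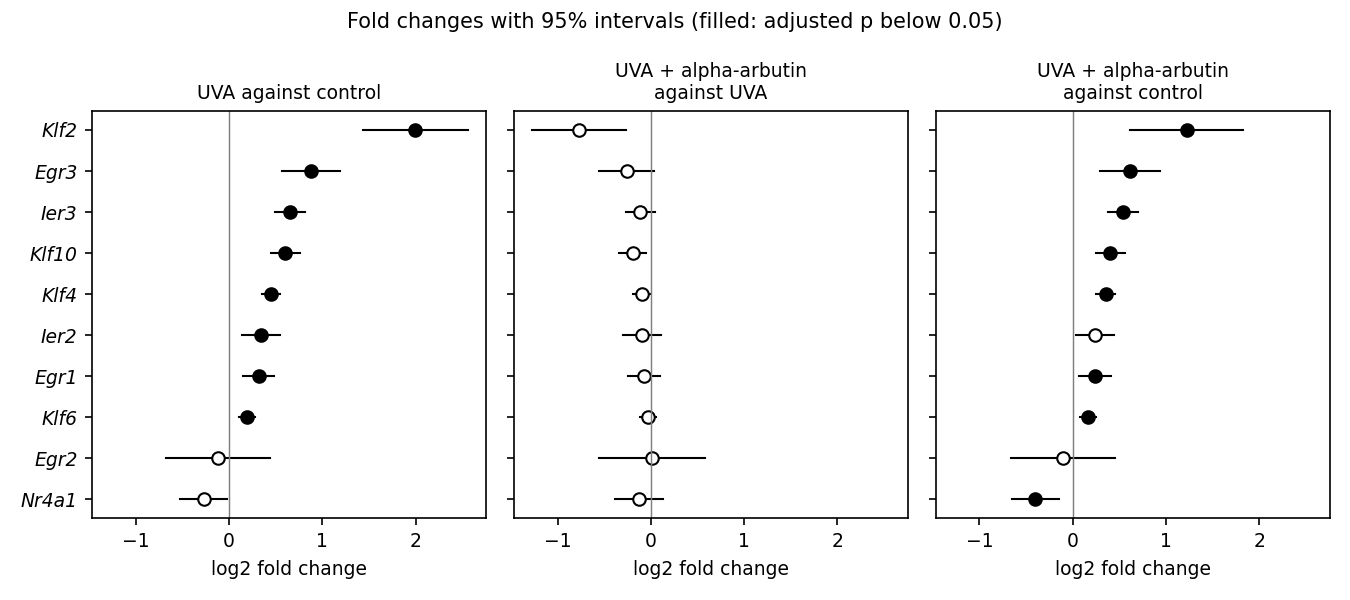
Log2 fold changes (points) with 95% intervals (lines) of the 10 genes in 3 comparisons; filled points have an adjusted p below 0.05. With UVA against control 8 points are filled, with co-treated against UVA 0, and with co-treated against control 8, of which Nr4a1 lies below 0.

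Co-treated and UVA cells received the same irradiation and differ in alpha-arbutin. Of the 10 genes, 0 were called in edgeR at an adjusted p below 0.05, where 0.0353% of all tested genes were called. An unadjusted p below 0.05 was found for 3 of the 10, beside 957 of 14151 tested genes. DESeq2 also called 0 of the 10. Fitted log2 fold changes ran from -0.77 for Klf2 to 0.01 for Egr2, with a median of -0.11 against 0.00 over all tested genes. Co-treated and UVA libraries did not overlap for Klf4 and Klf10, both with co-treated lower. They did so in that direction for 751 of 14151 tested genes, and in either direction for 10.8%.

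Klf2 had 1.95, 2.51 and 3.61 FPKM in co-treated libraries, against 3.71, 2.76 and 7.18 FPKM in UVA libraries. Co-treated replicate 3 lay above UVA replicate 2. The log2 fold change was -0.77 ± 0.25 (95% interval -1.28 to -0.27; unadjusted p = 0.00394, adjusted p = 0.626), and without UVA replicate 3 it was -0.27 (adjusted p = 0.87). Over the other settings its adjusted p ran from 0.00407, with no filter on low counts, to 0.96 with DESeq2.

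Klf10 had 7.21, 6.62 and 6.76 FPKM in co-treated and 7.82, 7.56 and 8.09 FPKM in UVA libraries, which did not overlap. Its log2 fold change was -0.20 ± 0.07 (95% interval -0.35 to -0.05; adjusted p = 0.634). Klf4 had 33.04, 34.15 and 33.96 FPKM in co-treated libraries, each below the lowest UVA library at 34.77 FPKM. The log2 fold change of Klf4 was -0.10 ± 0.05 (95% interval -0.19 to -0.001; adjusted p = 0.732).

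For the other 7 genes the libraries of the 2 irradiated groups overlapped. Egr3 had 2.15, 1.58 and 1.51 FPKM in co-treated libraries, at a log2 difference of -0.26 from UVA (95% interval -0.56 to 0.04; adjusted p = 0.791). Ier3 had 106.26, 97.09 and 106.02 FPKM in co-treated libraries, at a log2 difference of -0.11 (95% interval -0.27 to 0.04; adjusted p = 0.834). Klf6, at 39.01, 39.33 and 40.99 FPKM in co-treated libraries, had the narrowest interval, -0.12 to 0.06. The widest interval was that of Egr2, -0.55 to 0.58, which holds differences in either direction larger than that of Klf4 between UVA and control cells.

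The 95% interval of Egr1 was -0.25 to 0.09, with 9.8, 8.99 and 8.68 FPKM in co-treated libraries. Ier2 had 10.72, 10.68 and 9.4 FPKM there (interval -0.30 to 0.10). Nr4a1 had 5.77, 4.13 and 3.64 FPKM in co-treated libraries (interval -0.39 to 0.13), and Egr2 had 0.72, 0.66 and 0.39 FPKM.

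**Figure D4:**
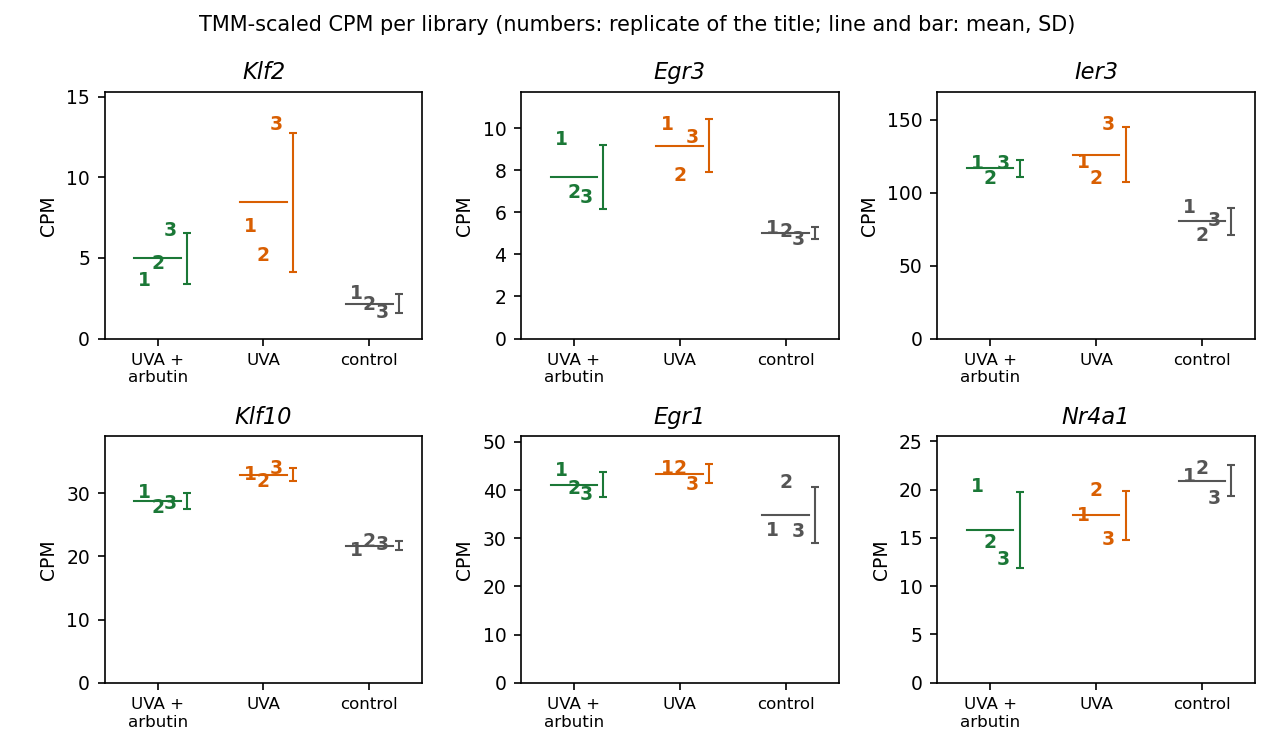
TMM-scaled CPM of 6 of the genes in each library, with digits for the replicate number in the title, a line for the mean and a bar for the SD (n = 3 a group). Klf2 in UVA cells ranges from 5.13 to 13.3 CPM, while Klf10 is tight in each group, at 28.7 ± 1.26 CPM in co-treated, 32.9 ± 1.06 in UVA and 21.7 ± 0.774 in control cells.

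The comparison of co-treated with control cells shows irradiated cells with alpha-arbutin against untreated cells; it shares its control libraries with the first comparison and its co-treated libraries with the second. Of the 10 genes, 7 rose (Klf2, Egr3, Ier3, Klf10, Klf4, Egr1 and Klf6) and 1, Nr4a1, fell, where 13.0% of all tested genes were called higher and 12.9% lower. Libraries did not overlap, with co-treated higher, for 7 members, against 19.8% of tested genes. For 0 members did they separate with co-treated lower, against 19.9% of tested genes. The members' median log2 fold change was 0.30, against 0.00 over all tested genes.

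Klf2 was at 2.69 ± 0.845 FPKM in co-treated and 1.18 ± 0.323 FPKM in control cells (SD, n = 3), and passed at 1.22 ± 0.30 on the log2 scale (adjusted p = 0.00245). Klf2 missed the threshold with limma on log2(FPKM + 1), at an adjusted p of 0.0711. Egr3 was at 1.75 ± 0.351 FPKM in co-treated and 1.14 ± 0.0643 FPKM in control cells, and passed at 0.62 ± 0.16 on the log2 scale (adjusted p = 0.00357). On the same scale Ier3 passed at 0.54 ± 0.08 (adjusted p = 3.72e-06), Klf10 at 0.41 ± 0.08 (adjusted p = 0.000155) and Klf4 at 0.35 ± 0.05 (adjusted p = 1.8e-06).

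Klf6 passed at 0.16 ± 0.04 on the log2 scale (adjusted p = 0.00529) but not when control replicate 1 was left out (adjusted p = 0.0534). Egr1, at 0.24 ± 0.08 (adjusted p = 0.0351), no longer passed without control replicate 1 or 3, without co-treated replicate 1 or 2, or with limma at either pseudocount (adjusted p from 0.0611 to 0.236 there). Without control replicate 2, the highest control library for Egr1, the difference was 0.38 (adjusted p = 0.000632). Ier2 was at 0.24 ± 0.10 and did not pass (adjusted p = 0.0844), though its co-treated and control libraries did not overlap.

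Nr4a1 had 5.77, 4.13 and 3.64 FPKM in co-treated libraries, against 6.15, 6.35 and 5.44 FPKM in control libraries. Co-treated replicate 1 lay inside the control range, and the other co-treated libraries lay below it. Its log2 fold change was -0.40 ± 0.12 (95% interval -0.65 to -0.15; adjusted p = 0.017). The call ended without control replicate 1 or 2, without co-treated replicate 2 or 3, and with limma at either pseudocount, where adjusted p ran from 0.0593 to 0.148. The difference was -0.61 without co-treated replicate 1 (adjusted p = 0.000204) and -0.27 without co-treated replicate 3 (adjusted p = 0.148).

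Spread within a group differed between the genes. The coefficient of variation of Klf2 over 3 libraries was 31.4% in co-treated, 51.1% in UVA and 27.4% in control cells, while that of Klf4 was 1.76, 4.47 and 1.06%. Nr4a1 and Egr2 varied more in co-treated cells (24.7 and 29.8%) than in control cells (8 and 11.8%), with no test of that difference. Replicate 3 had the lowest Nr4a1 and Egr2 of its group in co-treated, UVA and control cells alike. Its Klf2 was the highest of the group in co-treated and UVA cells and the lowest in control cells. Over all genes, the deviations of UVA replicate 3 and co-treated replicate 3 correlated weakly, at 0.07, the highest value of any pair between groups.

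Across the 9 libraries, which fall into the 3 groups, the genes most like each member in log2 CPM were found by Pearson's r among 10186 genes, as a description. Klf4 lay closest to Map2k3, a kinase that activates p38 (r = 0.995), and Vim, the intermediate filament vimentin (0.994). Klf2 lay closest to Id1, an inhibitor of helix-loop-helix factors (0.985), and Znhit6 (0.984), and Ier3 to Tax1bp3 (0.991) and the antiproliferative gene Btg1 (0.982). Klf6 tracked the mitochondrially encoded mt-Cytb (0.988) and mt-Nd4 (0.987), Klf10 Sgms2 (0.986) and Rhoa (0.982), and Egr3 Cbfb (0.985) and Sestd1 (0.979). For Egr1 (Nif3l1, 0.934, and Twf2, 0.933), Egr2 (Lsm8, 0.948, and Tle3, 0.929), Ier2 (Pdss2, 0.966, and Rpp14, 0.965) and Nr4a1 (Unc119, 0.97, and Acbd6, 0.959) the best matches had lower r. Among the members themselves the highest value was between Klf4 and Klf10 (0.969).

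Relatives and upstream genes were read from fixed lists, with the 2 of smallest p in UVA against control named from each; others named here were chosen after their values were seen. In UVA against control 14.7% of all tested genes were called higher and 14.6% lower. Egr4 had 0 counts in the 9 libraries. Of the 4 tested relatives Nr4a2, Nr4a3, Ier5 and Ier5l, 1 rose in UVA cells, Ier5, a regulator of heat shock factor (log2 fold change 0.18 ± 0.04, adjusted p = 0.0024), while Ier5l was at -0.21 ± 0.12 (adjusted p = 0.191). Of 7 other tested Kruppel-like factors 2 rose, Klf5 (0.26) and Klf9 (0.14), and 2 fell, Klf13 at -0.47 ± 0.07 (adjusted p = 3.45e-06) and Klf3 at -0.24 ± 0.05 (adjusted p = 0.000189).

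The counts for upstream factors and kinases stand beside 14.7% called higher and 14.6% lower among all tested genes, and several lie near those shares. Of 6 tested genes for SRF, its ternary complex partners and the MRTF coactivators, 1 rose in UVA cells, Elk3 (0.12 ± 0.04, adjusted p = 0.027), and Elk4 was at 0.08 ± 0.06 (adjusted p = 0.282). Of 8 EGR corepressor and CREB genes 1 rose, Atf1 (0.16 ± 0.05, adjusted p = 0.0095), and 1 fell, Creb1 (-0.19 ± 0.06, adjusted p = 0.0112). Among 11 ERK cascade genes 3 rose and 3 fell, with Rps6ka3, an ERK-activated kinase, at -0.38 ± 0.05 (adjusted p = 4.21e-07) and Mapk3, which encodes an ERK kinase, at -0.33 ± 0.06 (adjusted p = 4.85e-05). Of 10 stress kinase genes 1 rose, Map2k3 (0.48 ± 0.04, adjusted p = 6.05e-10), and 2 fell, with Mapk9, a JNK gene, at -0.24 ± 0.04 (adjusted p = 0.000114).

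Genes acting on AU-rich messages fell in 3 of 8 cases and rose in 0, beside 14.6% lower and 14.7% higher among all tested genes. Cnot1, the deadenylase scaffold, was at -0.19 ± 0.04 (adjusted p = 0.000432) and Zfp36l2 at -0.15 ± 0.05 (adjusted p = 0.0209). Of 11 AP-1 and other early genes 6 rose (Fos, Fosb, Fosl1, Jun, Junb and Mcl1) and 2 fell, Jund at -0.70 ± 0.09 (adjusted p = 1.98e-07) and Fosl2 at -0.45 ± 0.07 (adjusted p = 3.22e-06). Fos rests on 22, 5 and 25 counts in UVA and 4, 8 and 5 in control libraries, which overlapped (adjusted p = 0.0446). Genes reported elsewhere as EGR1 targets were split: of 10, 3 rose (Cd44, Pdgfa and Tgfb1) and 5 fell, with F3, the tissue factor, at -1.30 ± 0.10 (adjusted p = 8.14e-11) and fibronectin, Fn1, at -0.61 ± 0.04 (adjusted p = 1.14e-12). With co-treated against UVA, 0 genes of these 9 lists were called in edgeR, where 0.0353% of all tested genes were called.

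**Figure D5:**
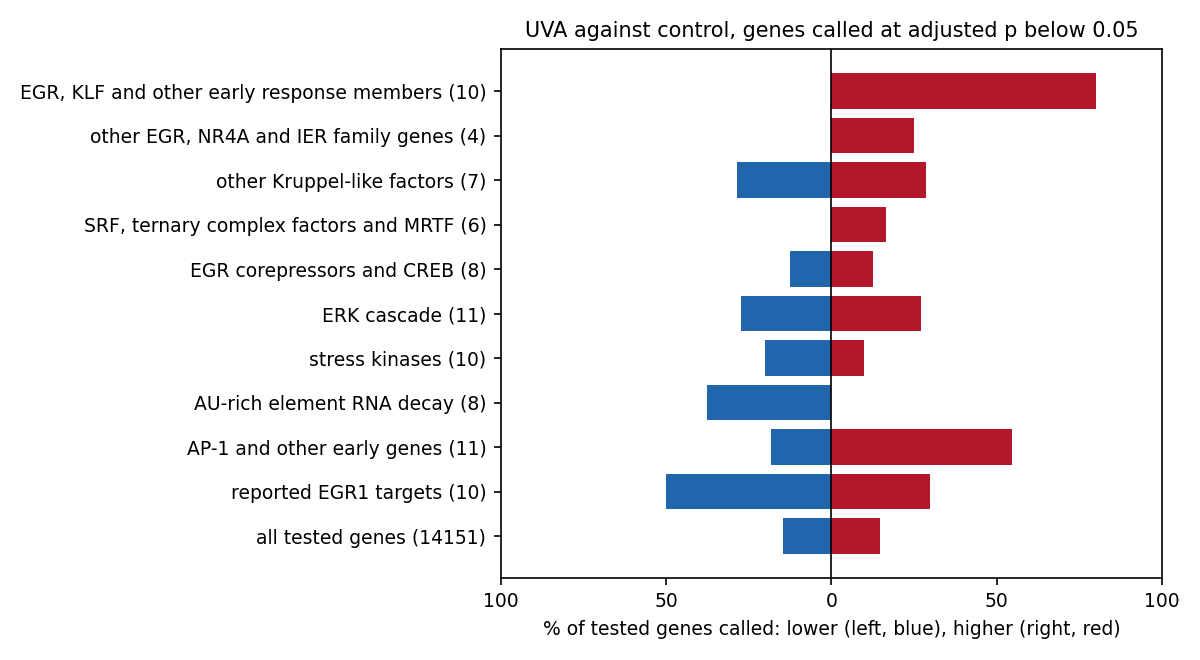
Percent of tested genes called higher (right) and lower (left) in UVA against control cells, for the 10 members, 9 fixed lists and all tested genes, with the number tested in brackets. Of the members 8 of 10 are higher and 0 lower, beside 14.7% higher and 14.6% lower among all tested genes.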

How the data were processed

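RNA of 9 NIH/3T3 libraries was analysed from 1 deposited table whose columns, per the file headers, are raw counts and FPKM for each gene. The deposited FPKM equals the deposited count scaled by exonic size and library total: 510219 of 510219 values matched within 0.01. HTSeq 0.6.1, HISAT2 2.2.1, cutadapt 1.9.1, bcl2fastq 2.20.0.422 and build mm39 are named, per the submitters' processing notes, with no roles. No source used here gives the annotation release or strand setting. Groups came from the titles; UVA titles read MOCK, and columns headed NC were taken as control because only the control titles were left without a matching prefix. Libraries of a group differed by more than sampling noise (chi-square per degree of freedom 2.28 to 5.04).

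Counts were tested with edgeR 4.0.16 in R 4.3.3 (filterByExpr, TMM, quasi-likelihood F-test, two-sided) on all 9 libraries by group, with adjustment over 14151 genes; limma 3.58.1 and DESeq2 1.42.0 served as alternatives, and the code was tested on simulated data. Standard errors came from the F statistic. By rule, the named genes are the 10 members, the 2 of smallest p in each list, any overlapping gene, and the 2 most alike in log2 CPM (prior count of 1, mean CPM of at least 5); further list genes were named after their values were seen. Members and lists were chosen with earlier results of these data known. Motif letters were counted in RefSeq windows on GRCm38.p6, and 3′ ends in the longest coding GENCODE M21 transcript per gene.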

Additional observations from a re-analysis of the deposited data

How the results depend on the processing

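Each result was recomputed with 10 other settings of scaling, tool, pseudocount, filter, samples and block, and without each library in turn. The counts of members called higher moved by less than 1.5 times throughout. With UVA against control, 1 member (Nr4a1) was called lower with no low-count filter, with the 2 groups alone and with the replicate block, and 0 to 1 with a library left out. With co-treated against UVA, 1 member (Klf2) was called lower with no low-count filter. With co-treated against control, 0 were called lower with limma at either pseudocount, and 0 to 1 without a library. The setting with no low-count filter moved adjusted p in both directions at near-equal log2 fold changes. In UVA against control, Klf2 went from 1.98e-06 to 2.82e-25 and Ier2 from 0.0109 to 0.0167.

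Over all genes, co-treated against UVA gave 5 calls, against 12 with DESeq2, 0 with limma on log2(FPKM + 1) or log2(FPKM + 0.1), 29 with no low-count filter, 19 with the replicate block, and 1 to 22 without a library (22 without UVA replicate 3). Signs turned only in differences that were not called: Egr2 in co-treated against UVA was at -0.01 with limma on log2(FPKM + 0.1) and -0.003 with the replicate block. Without a library that difference ran from -0.15 to 0.24, and Egr2 from -0.20 to 0.024 in UVA against control and from -0.27 to 0.12 in co-treated against control. Likewise in co-treated against UVA, Ier3 ran from -0.20 to 0.016 and Nr4a1 from -0.34 to 0.008. The causes were not tested.

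The titles share replicate numbers, and deviations of same-numbered libraries correlated weakly, at -0.01 to 0.07. Between UVA and co-treated libraries such pairs were at 0.039, 0.039 and 0.07, and pairs of different number at -0.066 to 0.027. The labels do not say whether the numbers mark pairs, and the replicate block was not used for the main results. Counts of 24 to 41 per library limit Egr2, and 34 to 266 limit Klf2.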
